A study of Mus musculus with 20 samples.

Results

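The cells described here were interferon-responding mature neutrophils inside 4T1.2 tumors, a mouse breast cancer grown in young female BALB/c mice as a model of triple-negative disease. They were chosen by their own counts in the single-cell RNA sequencing table of tumor cells. A cell was called a mature neutrophil when S100a8 and S100a9 summed to 300 counts or more, Csf3r was at 1 or more, Csf1r at 1 or less, C1qa at 5 or less, and Ngp, Camp and Ltf together were under 20. It was called interferon-responding when Ifit1, Isg15 and Rsad2 summed to 5 or more. Of 10885 tumor cells, 3539 were mature neutrophils by these counts, and 1882 of them, 53.2%, were interferon-responding. The remaining 1657 mature neutrophils, with a sum of 0 to 4, were the comparison.

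The study asked whether B-cell precursors become macrophages in cancer, and it sorted tumor-associated macrophages (TAM) from 4 tumor-bearing mice, for which the sources name no further treatment. For comparison it cultured macrophages from B cells (B-MF) and from monocytes (Mo-MF) in medium conditioned by 4T1.2 cells. The tumor libraries carry the numbers 2 to 5 in the table, and these numbers could not be tied to the 4 labelled tumor samples, so each library was treated as 1 replicate of the same group. The labels do not tie a library to a mouse. The p-values therefore rest in part on how far the difference between interferon-responding and other cells varied from library to library, which may be partly technical. The values are corrected counts, already brought by the authors to a common depth, so median totals lay between 7532 and 7558 counts per mature neutrophil in every library and the sequencing depth behind them is unknown.

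The labels call every tumor cell a macrophage, and the levels of Cxcr2, C1qb and Apoe in the selected cells went against that. Cxcr2, the chemokine receptor that guides neutrophils, averaged 3.21 to 3.70 corrected counts per interferon-responding cell across the libraries, against 0.586 to 1.56 in tumor cells with at least 2 counts of Csf1r, the receptor of macrophages and monocytes. The complement gene C1qb stood at 0.462 to 0.688 against 1.92 to 5.61, and Adgre1, which encodes the F4/80 antigen of macrophages, was at 0.0308 to 0.0636 per interferon-responding cell. The selection did not use Cxcr2, C1qb or Adgre1, although it did use Csf1r and C1qa.

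Interferons are secreted proteins that warn cells of virus or other danger. Type I interferon binds the receptor pair Ifnar1 and Ifnar2 and activates factors that include Stat2 and Irf9, which bind a DNA element built around repeated GAAA. Interferon gamma binds Ifngr1 and Ifngr2 and strongly induces guanylate-binding proteins and the class I antigen presentation genes. Neutrophils respond to both. Isg15, a ubiquitin-like protein, Rsad2, the antiviral enzyme viperin, and Ifit1, which binds viral RNA, are standard targets.

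The element is shown for the 3 selecting genes and for other genes described below, because type I interferon is known to act through such letters. Each line gives the gene's own strand, 5′ to 3′, from RefSeq GRCm38.p6. The capitals mark GAAA, any 2 bases, then GAAA, or the same letters on the opposite strand.
Isg15, minus strand, chr4:156200851-156200920, match starting 72 bases before the start site: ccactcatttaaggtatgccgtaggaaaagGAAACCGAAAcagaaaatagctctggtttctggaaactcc
Rsad2, minus strand, chr12:26456533-26456602, 120 bases before: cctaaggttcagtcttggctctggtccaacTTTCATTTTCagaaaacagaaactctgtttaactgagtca
Ifit1, plus strand, chr19:34640755-34640824, 104 bases before: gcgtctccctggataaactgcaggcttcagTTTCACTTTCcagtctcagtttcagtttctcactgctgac
Slfn5, plus strand, chr11:82951917-82951986, 155 bases before: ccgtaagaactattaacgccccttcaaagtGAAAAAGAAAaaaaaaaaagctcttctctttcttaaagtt
Gbp5, plus strand, chr3:142496739-142496808, 165 bases before: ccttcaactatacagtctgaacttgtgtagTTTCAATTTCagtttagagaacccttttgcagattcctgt
Gbp7, plus strand, chr3:142530253-142530322, 53 bases before: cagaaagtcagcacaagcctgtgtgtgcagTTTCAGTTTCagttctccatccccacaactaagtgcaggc
Stat2, plus strand, chr10:128270248-128270315, 222 bases before: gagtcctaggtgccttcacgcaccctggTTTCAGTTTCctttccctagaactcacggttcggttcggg
Cxcl10, minus strand, chr5:92349063-92349132, 213 bases before: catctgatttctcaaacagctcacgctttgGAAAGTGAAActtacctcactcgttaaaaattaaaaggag
Isg15 held 3 overlapping matches, Ifit1 held 2 and Rsad2 held 1. The windows of Slfn4, Irf7, Irf9, Ifit2, Ifi47, Herc6, Tap1, Cd274, Fpr2 and Retnlg held none.

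The selection rested mainly on Isg15. Among interferon-responding cells 94.5% reached the threshold with Isg15 alone, 42.9% had any count of Rsad2 and 19.2% any count of Ifit1. The median sum of the 3 genes was 15, with quartiles of 8 and 28 and a highest value of 289. Isg15 averaged 21.9, 15.6, 17.7 and 18.98 corrected counts per interferon-responding cell in libraries 2, 3, 4 and 5, against 1.401, 1.15, 1.42 and 1.20 per other mature neutrophil. Rsad2 averaged 4.27 to 5.30 against 0.0737 to 0.119, and Ifit1 averaged 0.777 to 1.05 against 0.00977 to 0.0284. These values chose the cells and are given without a test.

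The share of mature neutrophils that were interferon-responding was 59.6% of 759 cells in library 2, 42.4% of 919 in library 3, 53.9% of 763 in library 4 and 57.3% of 1098 in library 5, a mean of 53.3% ± 7.60 (SD, n = 4). The exact (Clopper-Pearson) 95% intervals, which cover counting error only, were 56.0% to 63.1%, 39.2% to 45.7%, 50.3% to 57.4% and 54.3% to 60.2%. Library 3 was the lowest, and its interval did not meet those of the other libraries. The same sum reached 5 in 27.1% to 37.4% of tumor cells with at least 2 counts of Csf1r and in 10% to 20% of the 159 neutrophils kept out for their Ngp, Camp and Ltf, the genes of granule proteins made by immature neutrophils. Cells of these classes differed in median detected genes, at 2362 to 2510 and 1353.5 to 1604, against 1342 to 1415 in mature neutrophils. In the cultures no B-MF library held a mature neutrophil by the same counts, and the Mo-MF libraries held 11 and 9, of which 8 and 3 had a sum of 5 or more.

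The summed antiviral genes and GTPases, averaged over the libraries, were higher bin by bin, below the threshold as well as above it. Mature neutrophils were placed in 6 bins by their sum of the selecting genes. The antiviral sum covered 41 other antiviral genes and left out the Ifitm genes, here and below. Ifitm1 alone averaged 57.8 counts per interferon-responding cell against 66.1, so a sum with the Ifitm genes would set the classes less far apart. The antiviral sum per cell averaged 7.27 at a sum of 0, 9.40 at 1 to 2, 12.6 at 3 to 4, 16.5 at 5 to 9, 22.1 at 10 to 19 and 40.3 at 20 or more. The summed interferon-inducible GTPases went from 2.88 to 22.5 and Slfn4 from 1.73 to 7.09 between the lowest and highest bins. Cxcl10 did not follow every step, at 0.639 at a sum of 0, 0.513 at 1 to 2 and 3.32 at 20 or more. Retnlg, a secreted protein of circulating mature neutrophils, went from 74.1 to 37.5, while Fpr1 went from 1.87 to 1.81. Just outside the threshold, cells with a sum of 4 had an antiviral sum of 11.9 to 15.3 in the 4 libraries, and cells with a sum of 5, just inside, had 13.8 to 16.3. The ranges on either side of the threshold overlapped.

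**Figure D1:**
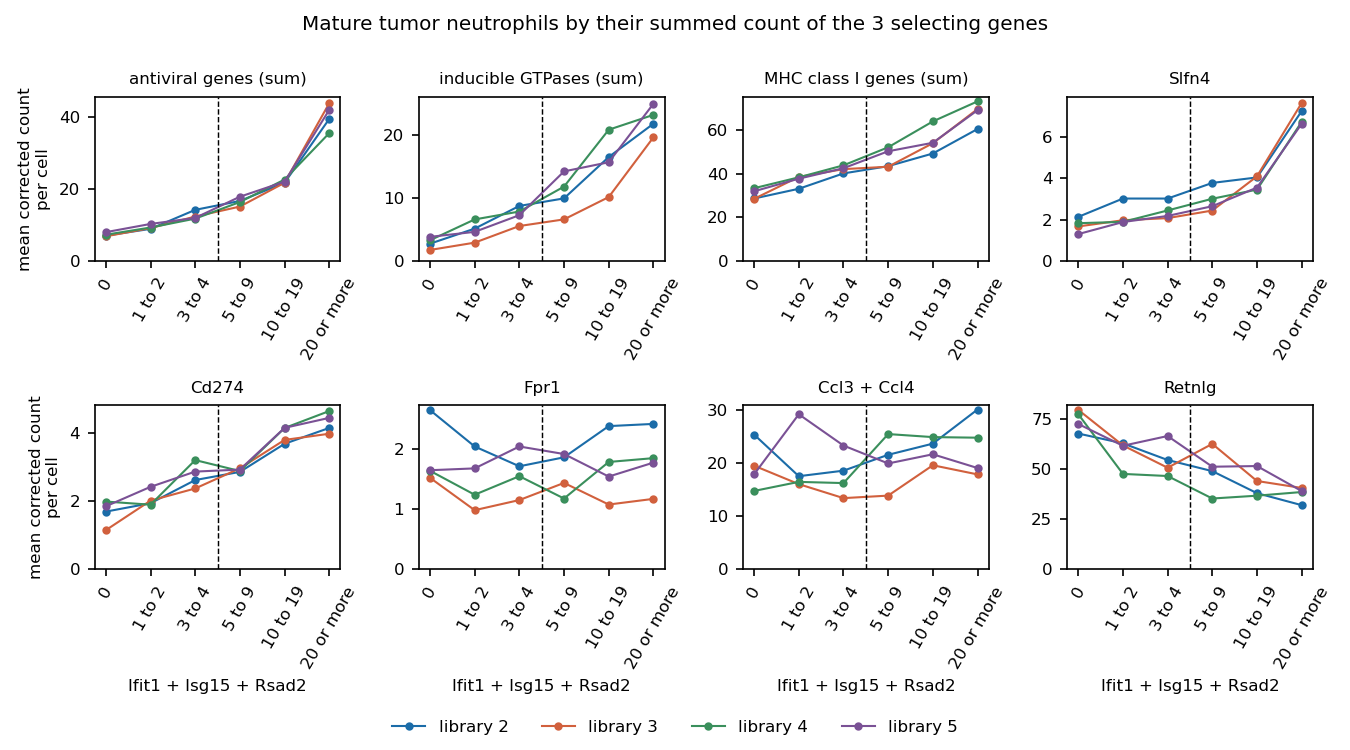
Mean corrected count per cell (vertical axes) of mature tumor neutrophils in 6 bins of the summed count of Ifit1, Isg15 and Rsad2 (horizontal axes), with 1 line per library and a dashed line at the threshold of 5. Antiviral genes (Ifitm genes left out), GTPases, MHC class I genes, Slfn4 and Cd274 were higher in each library's top bin than in its bin of 0. Retnlg was lower in the top bin. Fpr1 went from 1.53 to 2.66 at a sum of 0 to 1.18 to 2.43 in the top bin.

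To compare the classes, mean corrected counts per library were tested on the log2(mean + 0.1) scale with limma, with the library as a block, over 4423 genes that averaged at least 0.1. The 11 genes of the selection were set apart. In limma each gene's variance is drawn toward a value shared by all genes fitted. An SE or p-value is therefore not that gene's own library spread alone. Because the cells were divided by their own counts, a gene that varies with Isg15 from cell to cell was bound to differ, and the test says only that a difference recurred across libraries. By limma, 341 genes, 7.71% of those tested, were higher in interferon-responding cells and 379, or 8.57%, were lower, at an adjusted p under 0.05. A difference of at least 1 on the log2 scale was seen in 44 of the higher genes, 36 of which averaged at least 0.1 in the other cells, and in 1 of the lower genes. The median difference over all genes tested was -0.04. Where a gene is said not to overlap between the classes, the share of all genes tested without overlap is not given. Fewer genes were called without the library block, 215 higher and 184 lower, and the lower genes numbered 242, 216 and 207 without library 3, 4 and 5 in turn.

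No interferon gene could be tested as a ligand. Ifng had no count in either class of any library, and Ifnk had a mean of 0.00378 in the other cells of library 3 and 0 elsewhere. The receptor genes did not differ in the way the targets did. Ifnar1 averaged 0.493, 0.464, 0.423 and 0.450 per interferon-responding cell against 0.427, 0.474, 0.503 and 0.431, with the classes overlapping (difference 0.00 ± 0.08 SE, limma adjusted p = 0.994). Ifnar2 had a log2 difference of 0.08 ± 0.07 (adjusted p = 0.468), also with overlap. Ifngr1 was lower in interferon-responding cells in all 4 libraries, at 1.34, 1.45, 1.18 and 1.45 against 1.51, 1.96, 1.997 and 1.96, without overlap (difference -0.42 ± 0.09, adjusted p = 0.00919).

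Some of the signaling genes downstream were higher. Irf7, the factor that amplifies type I interferon production, averaged 1.65, 1.45, 1.39 and 1.74 against 0.498, 0.372, 0.526 and 0.488 (log2 difference 1.54 ± 0.09 SE, limma adjusted p = 9.09e-07). Every interferon-responding value lay above every other value. Stat2 averaged 0.381, 0.387, 0.38 and 0.466 against 0.163, 0.112, 0.136 and 0.151, also without overlap (1.07 ± 0.08, adjusted p = 6.52e-06). Irf9, its DNA-binding partner, was higher by 0.44 ± 0.10 (adjusted p = 0.0163) and lost its call in 5 of 21 other settings. Socs1, which restrains interferon receptor signaling, was higher by 0.89, although its library means overlapped because library 3 was low in both classes, at 0.313 and 0.157. Of 20 receptor and signaling genes tested, 8 were higher and 2, Ifngr1 and the phosphatase gene Ptpn1, were lower, with a median difference of 0.17.

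Most antiviral genes tested were higher. Of 46 genes on this list, 45 were in the table and 34 passed the filter on low values, of which 30 were higher and 1 was lower, with a median log2 difference of 1.23. Some passed only because interferon-responding cells raised their mean, and the count of 30 and the median include them. Among the 26 with a mean of at least 0.1 in the other cells, 22 were higher and 1 lower. The median was 0.91 over 45 genes with no filter and 0.90 over 15 genes with a mean of at least 0.5. Herc6, which attaches Isg15 to other proteins, averaged 0.735, 0.662, 0.718 and 0.854 per interferon-responding cell against 0.111, 0.0945, 0.108 and 0.0810. Usp18, which removes Isg15 and also curbs the type I receptor, averaged 0.277 to 0.436 against 0.0227 to 0.0326. Neither gene overlapped between the classes, but both had a mean under 0.1 in the other cells and passed the filter only through interferon-responding cells, so their values are given without a test.

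Ifit2, a relative of the selecting gene Ifit1, averaged 0.230, 0.369, 0.285 and 0.367 against 0.0163, 0.00945, 0.0170 and 0.00426. Cmpk2, the mitochondrial nucleotide kinase gene beside Rsad2, averaged 0.223 to 0.282 against 0.00378 to 0.0261. Both passed the filter only through interferon-responding cells and are likewise given without a test. Parp14, an ADP-ribosyltransferase, was higher by 1.84 ± 0.08 and Rtp4, a chaperone of receptor transport that is induced by interferon, by 1.81 ± 0.08. The RNA sensor Ifih1 was higher by 1.54 ± 0.10, the nucleic acid sensor Zbp1 by 1.54 ± 0.07 and the exonuclease Isg20 by 1.5 ± 0.07. Parp14, Rtp4, Ifih1, Zbp1 and Isg20 were higher in 4 of 4 libraries, with limma adjusted p between 1.59e-07 and 3.48e-06. Ifit3 and Mx1, further standard targets, stayed below the filter. Ifit3 averaged 0.0885 to 0.124 against 0.0113 to 0.0228.

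Interferon-induced transmembrane genes, which block virus entry, did not move as one family. Ifitm3 was higher, at 15.4 to 17.3 against 10.9 to 11.9 (0.52 ± 0.06 SE, limma adjusted p = 0.000368). Ifitm6 was lower, at 2.53, 3.34, 3.08 and 2.34 against 5.03, 5.96, 6.91 and 6.08 (-1.07 ± 0.09, adjusted p = 2.21e-05), and it was the only called gene with a fall of more than 1. Ifitm1 and Ifitm2 had differences of -0.19 and 0.05 (adjusted p = 0.0829 and 0.667). In the granule-rich neutrophils of the same libraries Ifitm6 averaged 47.5 to 65.2.

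The Schlafen genes, interferon-induced regulators of growth and of viral replication, were higher in all 5 members tested of 7, with a median of 1.16. With no filter on low values 6 of 7 were higher, with a median of 0.66. Slfn5 averaged 1.09, 1.17, 1.06 and 1.15 against 0.143, 0.200, 0.199 and 0.215 (2.08 ± 0.08 SE, limma adjusted p = 9.22e-08). Slfn4 was given as a marker of these cells but was not used to choose them. It averaged 5.43, 4.46, 4.59 and 4.46 against 2.72, 1.88, 2.03 and 1.72 (1.16 ± 0.08, adjusted p = 3.48e-06). The 4 interferon-responding values lay above all others for both genes. Slfn8, Slfn1 and Slfn2 were higher by 1.28, 0.66 and 0.36. Granule-rich neutrophils, with a low antiviral sum, nonetheless held 4.10 to 6.05 counts of Slfn4 per cell, and Csf1r cells, with an antiviral sum of 24.1 to 27.5, held 0.896 to 1.01.

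The interferon-inducible GTPases, which coat and break the membranes around intracellular microbes, were higher in 10 of 10 tested of 16, with a median of 1.47. They were higher in 9 of 9 with a mean of at least 0.1 in the other cells. With no filter on low values 9 of 16 were higher, with a median of 0.83. Gbp5 averaged 2.01, 0.926, 1.99 and 1.60 against 0.707, 0.106, 0.412 and 0.237 (2.02 ± 0.14 SE, limma adjusted p = 4.39e-06). Ifi47 averaged 2.25, 1.28, 2.24 and 2.27 against 0.479, 0.231, 0.588 and 0.450 (1.99 ± 0.08, adjusted p = 1.31e-07). Library 3 held the lowest level of both genes in both classes. Gbp7 was higher by 1.79 ± 0.07, Gbp2 by 1.68 ± 0.07 and Igtp by 1.47 ± 0.08. Gbp2b, outside the list, averaged 5.75 to 10.4 against 1.45 to 3.13 (1.84 ± 0.08). Gbp2, Gbp2b, Gbp5 and Gbp7 are neighbors on chromosome 3 with similar sequences, and how their shared reads were divided is uncertain. Of the 8 GTPase genes tested with a promoter in the table, 7 held the GAAA element there, and 5 held it with a closing C.

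**Figure D2:**
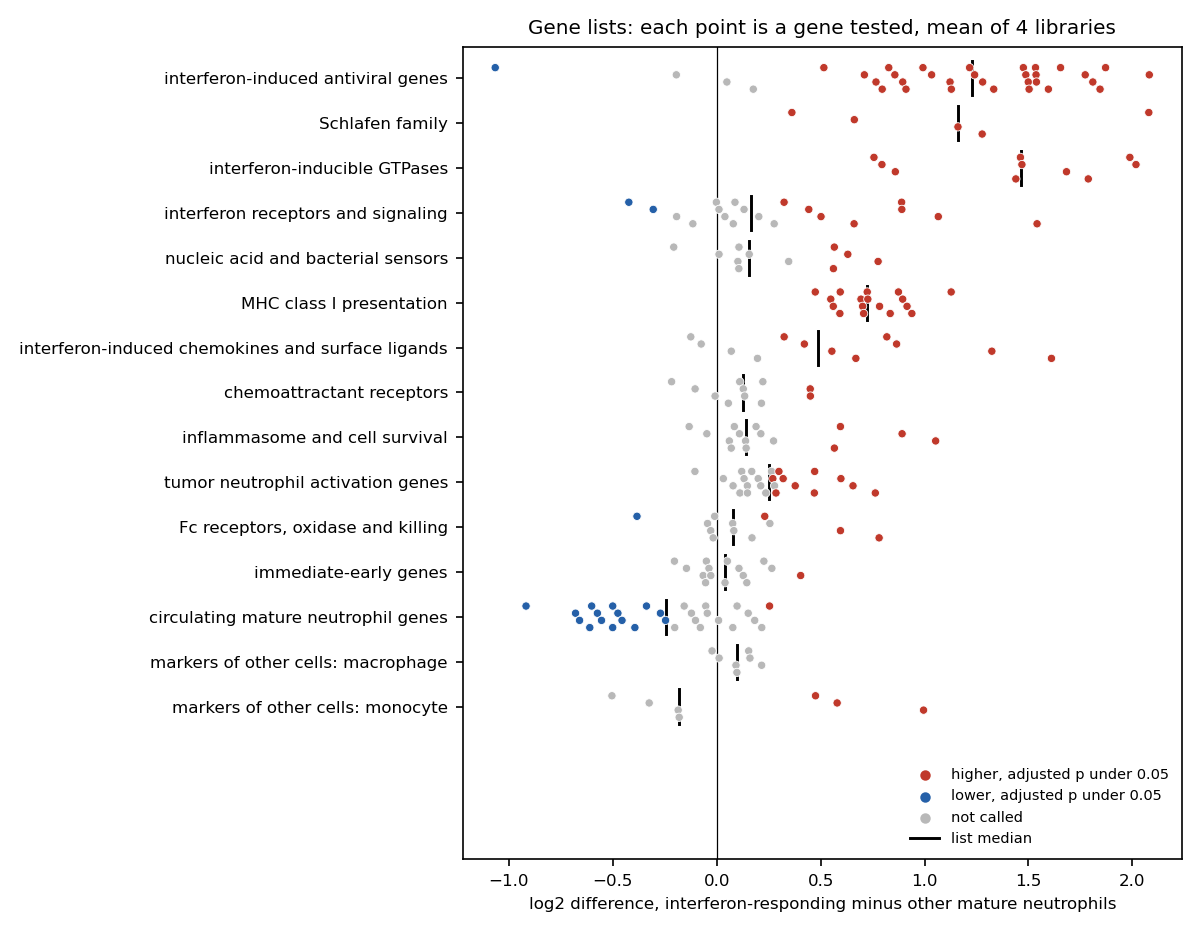
Log2 difference between interferon-responding and other mature neutrophils (horizontal axis, mean of 4 libraries on the log2(mean + 0.1) scale) for the tested genes of 15 lists, with red for genes called higher, blue for genes called lower, gray for genes not called and a black line at each list's median. Antiviral genes, Schlafen genes, GTPases and MHC class I genes lay mostly to the right, with medians of 1.23, 1.16, 1.47 and 0.72. The list of circulating mature neutrophil genes lay to the left, with a median of -0.25. Of the 34 antiviral genes and 10 GTPases plotted, 26 and 9 had a mean of at least 0.1 in the other cells. The rest passed the filter only through interferon-responding cells, and the colors and medians include them.

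Genes that load peptide on MHC class I, the display read by CD8+ T cells, were higher in 17 of 17 tested of 19, with a median of 0.72. Tap1, a subunit of the peptide transporter, averaged 1.77, 1.33, 1.91 and 1.85 against 0.886, 0.514, 0.744 and 0.797 (1.13 ± 0.08 SE, limma adjusted p = 4.21e-06). B2m, the invariant light chain, averaged 12.4, 12.7, 15.2 and 14.1 against 7.37, 8.0, 9.14 and 8.19 (0.72 ± 0.07, adjusted p = 3.88e-05). Neither gene overlapped between the classes. The immunoproteasome subunits Psmb9 and Psmb8 were higher by 0.92 and 0.87, and the heavy chains H2-K1 and H2-D1 by 0.59 and 0.47. H2-Q4, H2-Q6 and H2-Q7 were also higher, but these heavy chains are similar in sequence and may share reads. MHC class II genes, which neutrophils express little, were not called: 4 of the list of dendritic and class II markers were tested, with a median of -0.08.

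Interferon-induced chemokines and surface proteins were higher in 8 of 12 genes tested, with a median of 0.49, and in 7 of 11 with a mean of at least 0.1 in the other cells. The 8 included Ccl2, which attracts monocytes, and Cd69 and Fas, receptors on the cell itself. Each of these overlapped between the classes. Cd69 was lower in library 3, at 0.0821 against 0.0907, and Ccl2 was nearly level in library 2, at 0.314 against 0.296. Cxcl10, which attracts T and NK cells, averaged 3.43, 0.551, 2.37 and 2.83 against 1.19, 0.272, 0.608 and 0.463 (1.61 ± 0.19 SE, limma adjusted p = 0.000241). The classes overlapped, since library 3 was low in both, and its difference of 0.81 was the smallest of the 4, which reached 2.38. Cxcl9 and Ccl5 had differences of 0.07 and 0.20 (adjusted p = 0.623 and 0.643). Cd274, which encodes the checkpoint ligand PD-L1, averaged 3.66, 3.54, 3.94 and 3.91 against 2.04, 1.76, 2.30 and 2.30, without overlap (0.82 ± 0.07, adjusted p = 2.68e-05). Il18bp, a soluble blocker of interleukin 18, was higher by 1.32 and Il15 by 0.67. The receptor chain Il15ra, at 0.113 to 0.162 against 0.0397 to 0.0824, passed the filter only through interferon-responding cells. Il18 itself was higher by 0.89, at 0.505 to 0.859 against 0.250 to 0.412. The count on this list was 5 of 10 without library 4, 5 of 11 without library 5, 5 of 12 with no library block and 3 of 16 with no filter on low values.

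The other markers given for these cells, also not used to choose them, were the formyl peptide receptors Fpr1 and Fpr2. These receptors steer neutrophils toward bacterial and mitochondrial peptides. Fpr2 averaged 3.90, 3.21, 4.499 and 3.89 against 3.14, 2.42, 2.74 and 2.89, without overlap (0.45 ± 0.08 SE, limma adjusted p = 0.00339). Fpr1 averaged 2.26, 1.24, 1.62 and 1.75 against 2.17, 1.22, 1.45 and 1.75, and the libraries differed more than the classes did (0.06 ± 0.07, adjusted p = 0.621, library differences from 0.00 to 0.15). Csf1r cells held 0.298 to 0.489 counts of Fpr1. Of the given markers outside the selection, Slfn4 and Fpr2 set the classes apart. A difference in Fpr1 was not detected, except on the mean of the deposited log values (0.061, limma adjusted p = 0.0294). Of 11 chemoattractant receptors tested, Fpr2 and Ccrl2, a chemerin-binding receptor, were called, and Cxcr2 and Cxcr4 had differences of -0.10 and -0.22 (adjusted p = 0.330 and 0.110).

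**Figure D3:**
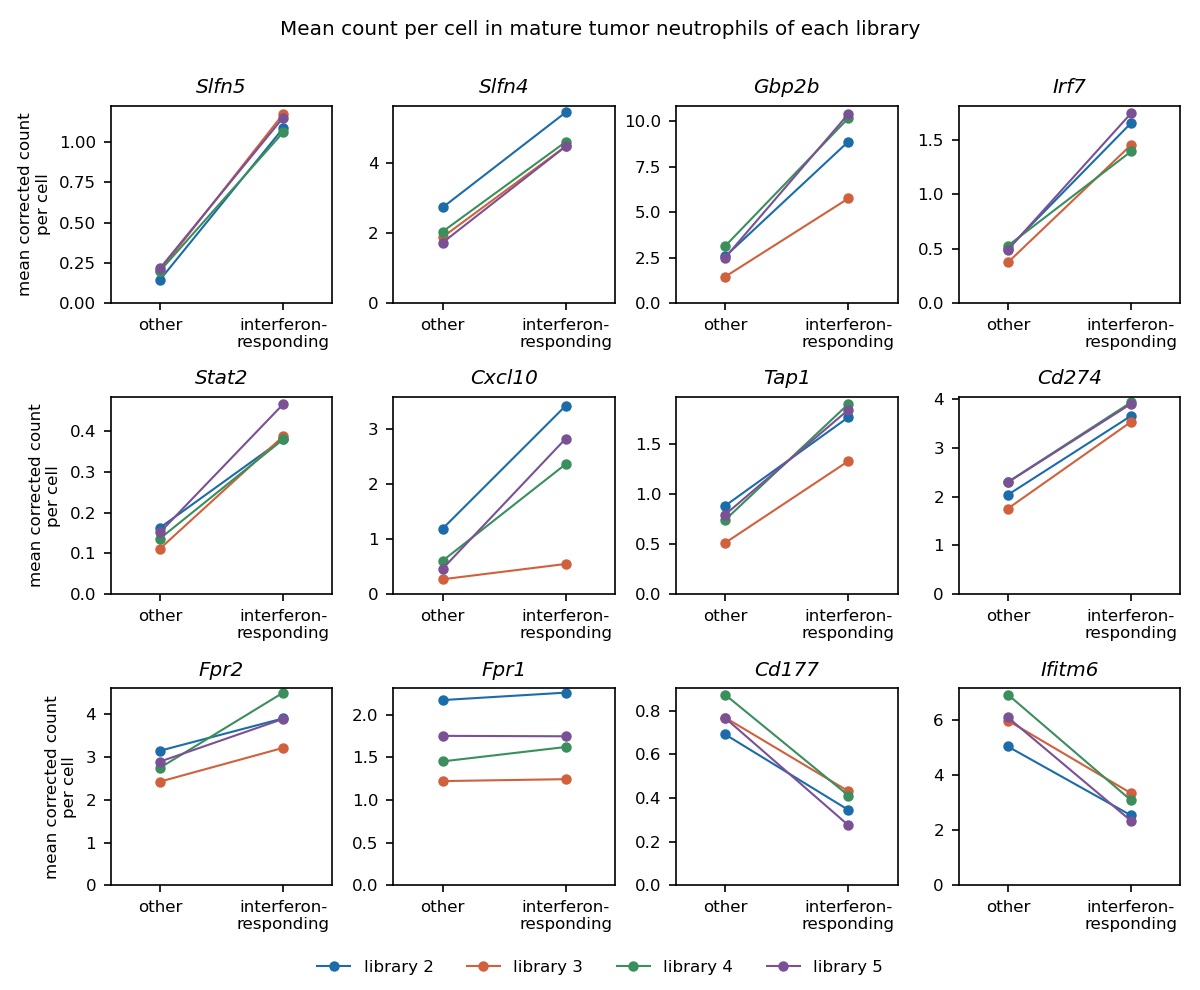
Mean corrected count per cell (vertical axes, each from 0) of 12 genes in other and interferon-responding mature neutrophils, with 1 line for each tumor library. Lines rose in all 4 libraries for Slfn5, Slfn4, Gbp2b, Irf7, Stat2, Cxcl10, Tap1, Cd274 and Fpr2, fell for Cd177 and Ifitm6, and were nearly level for Fpr1.

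Genes on the list for the circulating mature neutrophil stood out among those that were lower. Of 29 such genes, all tested, 15 were lower and 1, Hdc, was higher, with a median of -0.25. Over all genes tested 8.57% were lower and 7.71% higher. Cd177, a surface protein through which neutrophils bind endothelium, averaged 0.345, 0.431, 0.411 and 0.275 against 0.691, 0.767, 0.872 and 0.765 (-0.92 ± 0.09 SE, limma adjusted p = 4.83e-05). Retnlg averaged 38.4, 49.98, 36.9 and 46.6 against 62.2, 66.3, 56.0 and 66.8 (-0.55 ± 0.07, adjusted p = 0.000487). Lcn2, the iron-siderophore trap of granules, averaged 11.5 ± 1.39 against 18.5 ± 1.86 (SD, n = 4), a log2 difference of -0.68. None of these 3 genes overlapped between the classes. Granule-rich neutrophils held more of Cd177 and Retnlg than either class, at 8.30 to 8.70 and 78.6 to 129.7 counts per cell, so neither gene is particular to circulating mature cells. Anxa1, Mmp8, Stfa3 and Pglyrp1 were lower by 0.57 to 0.66 on the log2 scale. Stfa1, Stfa2 and Stfa2l1, neighbors of Stfa3 that may share reads with it, were not called. Stfa2 was nonetheless lower in 4 of 4 libraries (-0.20, limma adjusted p = 0.0937). BC100530, on the same list, was called lower (-0.27, limma adjusted p = 0.0279). Aldh2, G6pdx, Add3, Rflnb and Bmx were lower as well, with differences between -0.77 and -0.71. Ceacam10 and Ggt1 ranked with them by size, at means of 0.09998 and 0.0956 against 0.255 and 0.227, but passed the filter only through the other cells and are given without a test.

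Counts of the granule genes kept low by the selection moved the same way. Ngp, Camp and Ltf together averaged 0.332 to 0.623 per interferon-responding cell and 0.726 to 1.17 per other cell, and the fit was repeated in cells with no count of any of the 3. There 239 genes were higher and 209 lower, of which 236 and 193 had been called in the same direction among all cells, 69.2% of the higher and 50.9% of the lower calls. Of the genes of circulating mature neutrophils, 11 of 28 were lower there, with a median of -0.14, beside 209 of all 4428 genes tested there.

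Genes of neutrophil activation in tumors were higher in 10 of 24 tested, with a median of 0.25, in 3 of them without the library block, in 6 without library 4 and in 4 in cells with no count of Ngp, Camp or Ltf. Tnf averaged 1.61, 0.677, 1.21 and 0.687 against 0.736, 0.344, 0.611 and 0.522, with overlap (0.76 ± 0.10 SE, limma adjusted p = 0.00065). Csf1, the growth factor of macrophages, averaged 2.73, 3.45, 3.12 and 2.85 against 1.89, 1.97, 1.70 and 1.99, without overlap (0.66 ± 0.08, adjusted p = 0.000326). Il1b averaged 70.2 to 89.6 against 61.3 to 67.6 (0.32 ± 0.07, adjusted p = 0.0112). The chemokines Ccl3 and Ccl4 had differences of 0.26 and 0.11 (adjusted p = 0.190 and 0.625), from -0.20 to 0.78 and from -0.29 to 0.49 in single libraries. Within interferon-responding cells the rank correlation over cells of the antiviral sum with the sum of Ccl3 and Ccl4 was 0.04 to 0.08 in the 4 libraries, with Retnlg -0.07 to -0.005 and with the GTPases 0.49 to 0.54. These are descriptions over 390 to 629 cells that share a library.

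Among receptors for antibody, Fcgr4 was higher by 0.78 ± 0.07, at 2.23 to 2.66 against 1.32 to 1.46, and Fcgr1 by 0.60 ± 0.09, and the oxidase genes Cyba, Cybb, Ncf1 and Ncf4 were not called. Rac2, a GTPase that activates the oxidase, was lower in 4 of 4 libraries, at 3.52 to 3.73 against 4.58 to 4.89 (-0.38 ± 0.07 SE, limma adjusted p = 0.00323). Of 12 genes of this list tested, 3 were higher and 1 was lower. The third higher gene was Fcer1g, the signaling chain of Fc receptors, at 0.23 (limma adjusted p = 0.0409), which lost its call in 14 of 21 other settings. The higher genes numbered 2 without the library block and 1 in cells without Csf1r or C1q counts. Of 15 genes of the inflammasome and survival tested, the caspase genes Casp8, Casp1 and Casp4 and Il18 were higher, by 0.57 to 1.05, while Mcl1 and Nlrp3 had differences of 0.08 and 0.21 (limma adjusted p = 0.426 and 0.0831). Of 11 sensors of nucleic acid and bacteria tested, Mndal, Nod1, Ifi203 and Ifi204 were higher and no toll-like receptor was called. Tlr2 was nonetheless lower in 4 of 4 libraries (-0.21, limma adjusted p = 0.0829). Among the 5 sensors with a mean of at least 0.5, 0 were higher and 1 was lower. Immediate-early genes, which respond to handling of cells, were higher in 1 of 15 tested, Zfp36, beside 7.71% of all genes tested. The count was 6 of 15 with cells chosen by Ifit1 and Rsad2 and 0 of 15 without the library block.

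The promoters of called genes were read for the same element, from 250 bases before to 50 bases after the start site. A gene was counted when any of its promoters held the element. It occurred in 3.99% of 27025 genes and in 4.84% of the 3514 tested genes with a promoter in the table. Among genes called higher it occurred in 19.1% of 282, and among genes called lower in 2.69% of 297. Among the called interferon-induced, presentation, sensor and signaling genes it occurred in 41.5% of 65, and among all tested genes of those lists in 33.7% of 89. By list, it was in 9 of 27 antiviral, 4 of 15 MHC class I, 2 of 5 Schlafen and 4 of 8 sensor genes. It was also in 3 of 18 receptor and signaling and 1 of 8 chemokine and surface genes. With a closing C, 0 of 8 sensor genes held it. A match is a run of letters and says nothing of binding in these cells.

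Interferon-induced genes were also counted in other tumor cells. Tumor cells with at least 2 counts of Csf1r had an antiviral sum, Ifitm genes left out, of 24.1 to 27.5 corrected counts per cell. Interferon-responding neutrophils had 25.4 to 28.4 and the other mature neutrophils 8.85 to 9.75. GTPases in Csf1r cells summed to 5.97 to 12.3, against 11.5 to 18.9 in interferon-responding neutrophils of the same libraries. In both classes library 3 was the lowest for the GTPases and for Cxcl10, and it also held the smallest share of interferon-responding neutrophils. With 4 libraries this was not tested.

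**Figure D4:**
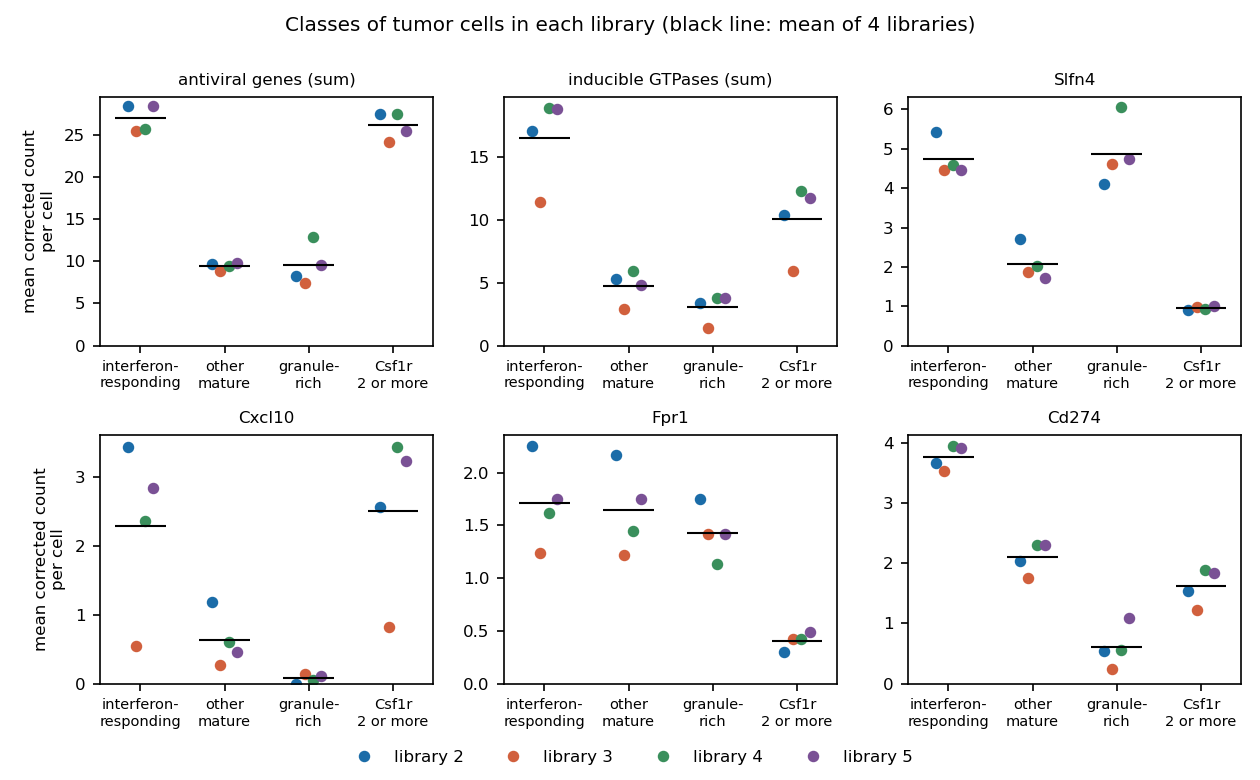
Mean corrected count per cell (vertical axes) of interferon-responding, other mature and granule-rich neutrophils and of cells with at least 2 counts of Csf1r, with 1 point per library and a black line at the mean of the 4 libraries. The antiviral sum, with Ifitm genes left out, was 25.4 to 28.4 in interferon-responding neutrophils and overlapped the 24.1 to 27.5 of the Csf1r cells. Slfn4, Fpr1 and Cd274 were lower in Csf1r cells in each library.

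Markers of other cells were measured in the same libraries. The 10 macrophage markers summed to 6.26 to 7.27 per interferon-responding cell and 5.45 to 6.83 per other cell, against 34.4 to 54.6 in Csf1r cells. In the reported fit 0 of the 7 tested were called (limma adjusted p of 0.119 or more). The count was 1 of 7 higher without library 2, without library 3 and with cells chosen by Ifit1 and Rsad2. It was 2 of 7 at a threshold of 3, and 1 of 7, with a median of 0.32, against cells with no count of the selecting genes. The 7 monocyte markers summed to 7.004 to 9.09 against 4.15 to 5.03. Most of this gap was Plac8, at 6.08 to 7.86 against 2.94 to 3.86 (0.995 ± 0.0653 SE, limma adjusted p = 3.48e-06). Ms4a4c and Ly6c2 were higher by 0.58 and 0.48, while Ccr2, F13a1, Fn1 and Vcan had differences from -0.50 to -0.18 and were not called. The part of monocyte markers in the gene differences was not tested. The 11 T, NK and B cell markers, of which 5 had no count in any interferon-responding cell, summed to at most 0.134 and the 5 tumor cell and fibroblast markers in the table to at most 0.0398 per interferon-responding cell. Interferon-responding cells with no count of C1q genes, Apoe or Csf1r numbered 135, 117, 132 and 229 in libraries 2, 3, 4 and 5. Against other cells without such counts they gave 176 higher and 89 lower genes, with 28 of 33 antiviral genes higher.

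Cell quality differed little between the classes. Median corrected counts per cell averaged 7545 and 7557 over the libraries. Interferon-responding cells had fewer detected genes in 4 of 4 libraries, 1348.5 against 1403.9 on average, and a lower ribosomal protein share in 4 of 4, 4.20% against 4.42% (each at the smallest two-sided p that the exact sign-flip permutation test allows with 4 libraries, which is above 0.05). The mitochondrial share was 1.15% against 1.10% (exact p = 0.25). The part of these values in the gene differences was not tested. In all, 13 barcodes occurred in more than 1 tumor library, and without those cells 336 genes were higher and 379 lower.

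Isg15 dominated the selection, so the cells were chosen again with at least 2 counts of Ifit1 and Rsad2 together, which leaves Isg15 free. Isg15 then averaged 30.4, 19.6, 18.9 and 23.9 in 178, 171, 195 and 267 chosen cells, against 8.48, 4.44, 7.20 and 7.37 in the rest, given without a test since Isg15 was part of the main selection. All 17 tested MHC class I genes and all 10 GTPases were higher under that choice, with medians of 0.71 and 1.05 against 0.72 and 1.47. Ifit1 and Rsad2 also belong to the main selection, so the choice is not independent of it. Of 24 activation genes, 17 were higher under that choice against 10 under the main one. Calls over all genes rose as well, with 515 of 4433 higher against 341 of 4423.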

How the data were processed

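The authors prepared 10x single-cell libraries from sorted tumor cells and cultured macrophages, aligned them to mm10 with Cell Ranger (STAR), kept cells with at least 1000 detected genes and genes found in more than 3 cells, and corrected the counts with SCTransform in Seurat. The deposited tumor table holds the natural log of 1 plus the corrected count for 15333 genes, and 100% of its values above 0 returned a whole number within 1e-06 of 1 plus the count. Doublets were not called, since raw counts were not used here. Accessible-chromatin peaks of the series were not used.

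Counts were averaged per library and class, and log2(mean + 0.1) was fitted with limma 3.58.1 in R 4.3.3, with the library as a block, over genes with a mean of at least 0.1, and p-values were adjusted by the Benjamini-Hochberg method at 0.05. The fit was tested on simulated data. Both classes come from the same 4 libraries, which is why the library was the block. The members and the gene lists were chosen with earlier results of these data known. Named genes were the markers given for these cells, the 10 largest rises and falls among genes of 1 sign in all libraries, up to 6 called members of each list by size, and the receptors and factors of the pathway. Antisense and overlapping genes were not separated. Promoters come from RefSeq GRCm38.p6. In all, 21 other settings were tried. Some members of the lists are not reported here.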

Additional observations from a re-analysis of the deposited data

Results flagged for a closer look

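Of 82 sets of 4 library values examined for a library far from the rest by Dixon's criterion, 4 met it, and chance gives about 1 in 20. The Herc6 difference was 2.4 in library 5 and 1.97 to 1.99 in the others, though Herc6 passed the filter only through interferon-responding cells. The Aldh2 difference was -0.981 in library 4 and -0.722 to -0.693 in the others. The Icam1 difference was 0.827 in library 4 and 0.515 to 0.533 elsewhere. The Fcgr4 difference was 0.648 in library 3 and 0.819 to 0.832 elsewhere. Each gene kept its direction in all 4 libraries.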

How the results depend on the processing

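The counts of called genes depended on the processing more than the direction of named genes did. Against 341 higher and 379 lower of 4423 genes tested, 218 and 181 of 14546 were called with no filter on low values. In cells without any count of Csf1r or C1q 209 and 160 were called, and 176 and 89 in cells without C1q, Apoe or Csf1r. The last alternative, chosen after seeing the data, kept 166 of the higher and 75 of the lower calls. The fit with no replicate block called 215 and 184, so the pairing of classes within a library carried many calls. Choosing cells by Ifit1 and Rsad2 gave 515 higher and 350 lower genes, which shared 240 (70.4%) and 195 (51.5%) of the reported calls. Lower genes numbered 215 of 1614 tested with a mean of at least 0.5 and 225 against cells with no count of the selecting genes. They numbered 209 in cells without Ngp, Camp or Ltf, an alternative also chosen after seeing the data. Leaving out 1 library gave 245 to 304 higher and 207 to 298 lower genes, lowest without library 5, with 242 lower genes without library 3 and 216 without library 4, and a share of interferon-responding cells of 51.2% to 56.9%. That share was 64.2% at a threshold of 3 and 36.5% at 10. The element with a closing C was in 26.2% of the 65 called interferon-list genes with a promoter, against 41.5% for the element without the C. Of 73 named genes called, 57 were called with no filter and 62 with no replicate block. The 73 include Herc6, Usp18, Ifit2, Cmpk2, Il15ra, Ceacam10 and Ggt1, which passed the filter only through 1 class. Of 21 settings, the call was lost in 14 for Fcer1g, 6 for Il1a, 5 for Irf9, 4 for Cxcl1 and 3 each for Fpr2, Irf1, Il1rn, Tnf and Mmp8. Among named genes, signs turned only in Fpr1 and Ifnar1, neither called in the reported fit. Fpr1 was called with the mean of the deposited log values (0.061, limma adjusted p = 0.0294) and came to -0.11 against cells with no count and -0.029 with cells chosen by Ifit1 and Rsad2. Ifnar1 came to -0.0597 to 0.066 with 1 library left out, positive without library 3 (0.0064) and without library 4, 0.099 and 0.031 at thresholds of 3 and 10, 0.030 against cells with no count, 0.063 with cells chosen by Ifit1 and Rsad2, 0.069 without Csf1r or C1q and 0.022 without C1q, Apoe or Csf1r. The cause of these changes was not tested. Corrected counts hide each cell's true depth.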
